A study of Brachypodium distachyon with 7 samples.

Results

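In aerial parts of the grass Brachypodium distachyon (line ABR1), 100 genes carried less of the histone mark H3K27me3 in both cold-treated groups than in never-cold seedlings. A first group (V30) was taken at the end of 30 days of cold. Another (V30N) was taken after 30 days of cold and 7 days of warmth. The 100 genes were chosen from the 6554 genes with H3K27me3 values. For each gene the differences V30 minus V0 and V30N minus V0 were taken as log2(signal + 27.3), with each library set to a median of 0, and the larger of both differences was the score. The 100 genes with the lowest score are the members, with VRN1 (Bradi1g08340) and FT2 (Bradi2g07070) left out by the rule. All groups were of this line, with no transgene or mutation named, and grew at 24 °C under a photoperiod of 16 h (8 h of darkness) when not in the cold. V0 seedlings were taken 17 days after sowing. V30 seedlings had 14 days of growth and then 30 days at 4 °C. V30N seedlings had 7 days of growth, 30 days at 4 °C and 7 days of warmth. Aerial parts were pooled in every group, and H3K27me3 had 1 library per condition, so no H3K27me3 difference has a replicate check. V30 and V30N plants were 44 days from sowing, so cold and age cannot be told apart. V30 and V30N were also separate plants, with 14 and 7 days of growth before cold. In V30N minus V30 that difference and the 7 days of warmth cannot be told apart.

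H3K27me3 is laid down by Polycomb repressive complex 2 and marks genes that are held silent in a given tissue or stage. H3K4me3 is found at the start of genes that are active or ready for activity. In temperate cereals long cold lowers H3K27me3 at VRN1, a MADS-box promoter of flowering, and the lower level outlasts the cold, which is the textbook case of chromatin memory of winter in grasses. In Arabidopsis the memory works the other way round, with H3K27me3 added to the flowering repressor gene FLC.

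The tables give 1 signal value per gene and library, with a median over genes of 117 in V0, 114 in V30 and 116 in V30N. The depth behind a value is unknown. Low values of each library lay mostly on a grid fitted to that library, and V30 stood apart in the number of fine steps. Of V30 values below 45, 83.8% fell within 0.0012 of a grid of 34 fine steps per coarse step. The shares were 85.3% in V0 and 83.1% in V30N for a grid of 48 fine steps. By chance 12.5% to 19.4% would fall on a fixed grid, which does not allow for the fitting. The coarse step differed in every library (0.595 in V0, 0.653 in V30 and 0.670 in V30N). Hence V0 and V30N share only a number of fine steps that V30 does not, and for V30 this cannot be told apart from the cold. Both differences of a gene also share the single V0 library. The identifiers matched 0 entries of the gene table used here, so members are given by locus identifier, and names and roles are given for published flowering and cold loci only.

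The members were lower by moderate amounts in both conditions. Median signal of the 100 genes was 83.1 in V0 (45.2 to 862), 49.6 in V30 (23.5 to 628) and 55.2 in V30N (28.0 to 647). As deposited, V30 signal was a median of 59.0% of V0 signal (32.5% to 74.4%), and V30N signal was 66.3% (48.8% to 76.4%). These values chose the genes and are a description with no test. In pooled tissue, fewer cells with the mark and less mark per cell cannot be told apart.

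On the centred log2 scale the members' median difference was -0.49 for V30 minus V0 (-1.38 to -0.32) and -0.42 for V30N minus V0 (-0.74 to -0.33). Over all 6554 genes the medians were 0.03 and 0.01. At 1.5-fold, 32 members were lower in V30, against 1.48% of all genes, and 4 members were lower in V30N, against 0.137%. No member passed 1.5-fold in both, and none of all genes did (0%). At 2-fold, 6 members were lower in V30 (0.259% of all genes) and 0 in V30N (0% of all genes). Nothing is read from these shares, since the same differences made the choice. The pseudocount sets much of the size: with a pseudocount of 1, 35 members were lower by 1.5-fold in both. The share of all genes at that pseudocount was not taken, so nothing is read from this count.

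**Figure D1:**
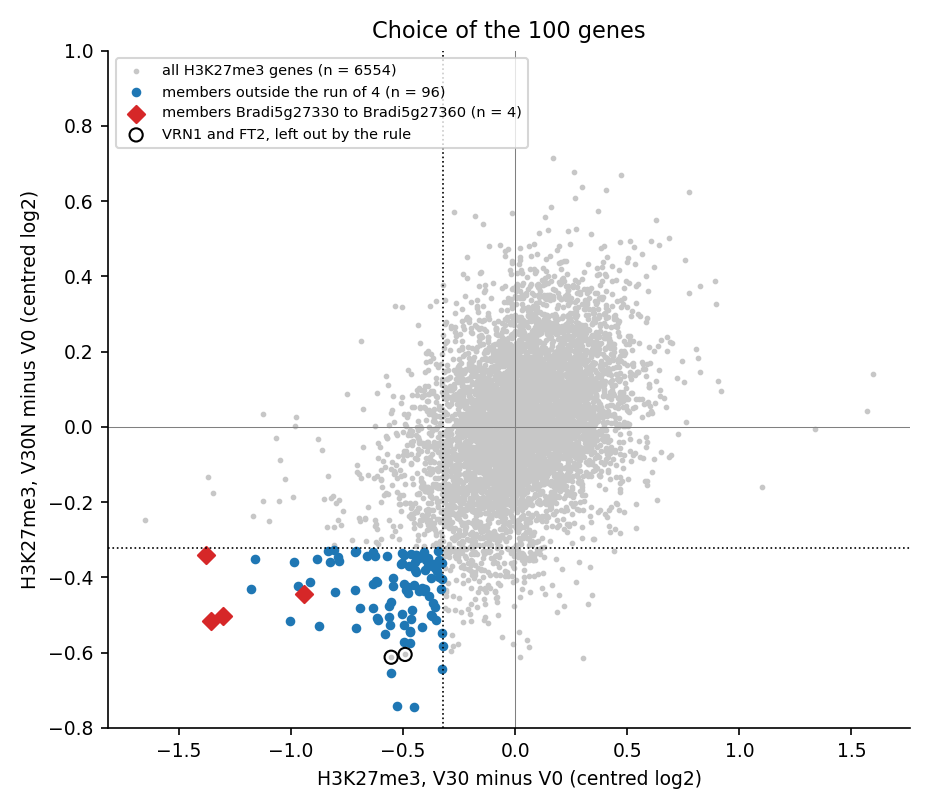
Each point is 1 gene, with the H3K27me3 difference V30 minus V0 on the x axis and V30N minus V0 on the y axis (both centred log2). Blue and red points are the 100 members, below the dotted limit of -0.32 on both axes, and open circles are VRN1 and FT2.

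The limit fell within a continuous spread. The last member inside, Bradi3g27360, had a signal of 84.7 in V0, 60.1 in V30 and 46.6 in V30N, with a score of -0.32. The first gene outside, Bradi1g50497, had 46.4, 29.4 and 31.0, also with a score of -0.32. Their scores differed in the third decimal.

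The lowest score belonged to Bradi1g16000, with signal of 133 in V0, 79.3 in V30 and 73.5 in V30N. Bradi1g75580 followed with 68.7, 35.3 and 37.5, a loss of nearly the same size in both cold-treated libraries. Bradi3g07010 had 320, 180 and 209. Bradi2g36910 had 529, 269 and 354, so V30N lay nearer V0 than V30 did. Bradi2g37340 went the other way, with 115, 69.2 and 57.1. The remaining genes of the first 10 were Bradi2g56840, Bradi5g27340, Bradi2g27140, Bradi1g04040 and Bradi2g56847. Among these, V30 was lowest relative to V0 at Bradi5g27340, with 299 in V0, 97.0 in V30 and 198 in V30N. Bradi2g27140 came next with 231 in V0 against 98.4 in V30 and 151 in V30N. VRN1 and FT2 would have ranked 2 and 17 by score, with differences of -0.55 and -0.61 at VRN1 and -0.49 and -0.60 at FT2.

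Most members carried modest H3K27me3 before cold. V0 signal was below 100 in 58 members, compared with 44.2% of all genes, and above 200 in 19, compared with 30.9%. All genes were also split into 4 equal classes by mean level over V0, V30 and V30N. Of the members, 46 fell in the lowest class, 28 in the second, 23 in the third and 3 in the highest. That mean includes V30 and V30N, which the rule held low, so the choice itself moves members down the classes. In V0 alone the members' lower quartile was 61.9, compared with 57.7 over all genes. The most strongly marked member, Bradi1g00470, had 862 in V0, 628 in V30 and 647 in V30N. Bradi2g62510 had 403, 187 and 290. In V30, 14 members lay among the lowest 5% of that library's values, and in V30N 12 did, against 0 in V0. At such genes the signal was close to the smallest value of the table, 23.3 in V30. The rule asks for a fall from V0, so this contrast between the libraries follows from the choice.

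**Figure D2:**
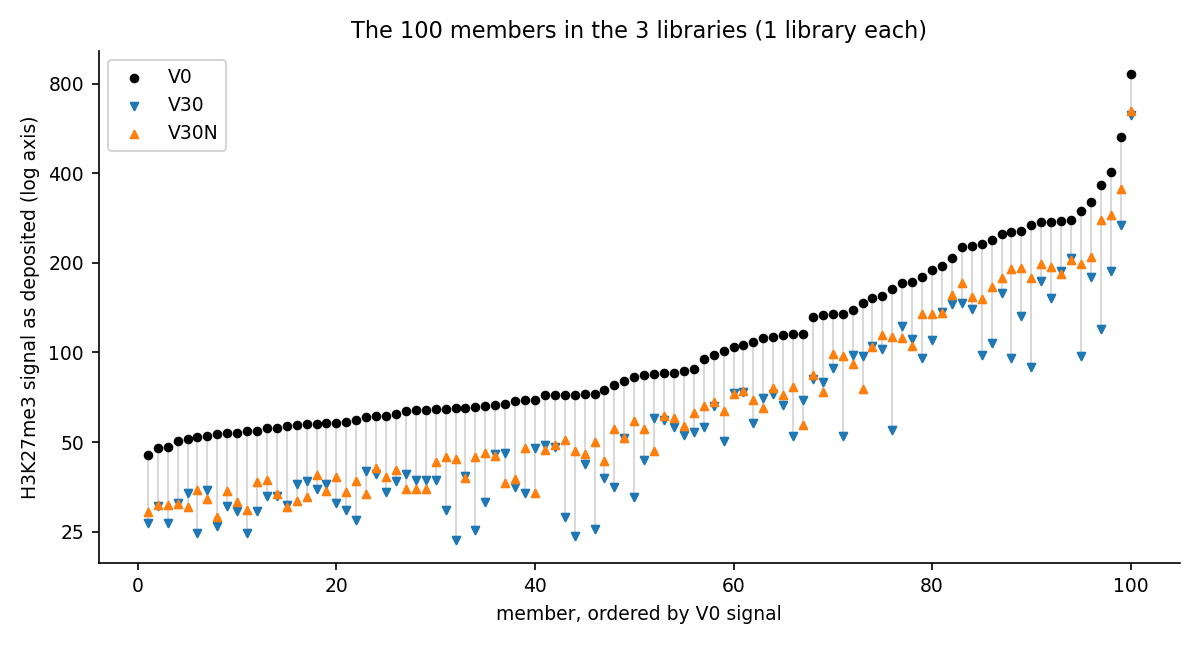
H3K27me3 signal as deposited (log axis) of each of the 100 members in V0, V30 and V30N, ordered by V0 signal, with 1 library per condition. V0 points run from 45.2 to 862, and both other points lie below the V0 point at every member, as the rule requires.

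The level of V30N relative to V30 differed among the members. The share of the V30 difference still present in V30N, on the log2 scale, had a median of 84.5% and ranged from 24.6% to 196%. It was at least 100% in 34 members and under 50% in 17. A share under 50% was possible only with a large V30 difference, because the rule holds V30N minus V0 of every member at or below the limit. The share is therefore given as a description of each gene, and nothing is read from its relation to the size of the V30 difference.

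Bradi5g27350 had the largest difference V30N minus V30, with 120 in V30 and 279 in V30N, against 366 in V0. Bradi4g06730 went from 255 in V0 to 95.8 in V30 and 191 in V30N. V30N was higher than V30 by 1.5-fold at 6 members, compared with 0.977% of all genes. The others of these 6 were Bradi5g27340, Bradi5g27360, Bradi3g49350 and Bradi2g54500. All 6 had a V0 signal above the members' median. At the lowest V0 signals such a rise was out of reach, because the rule caps V30N and V30 has a smallest value. Nothing is therefore read from this.

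At the other end, 3 members were lowest in V30N relative to V30. Bradi4g39167 had 69.1 in V0, 47.6 in V30 and 33.7 in V30N. Bradi2g20150 had 147, 96.9 and 75.4. Bradi3g27360, given above as the last member inside the limit, was the third. At 1.5-fold, 0 members were lower in V30N than in V30 (1.14% of all genes), which the limit on V30 and the range of V30N differences fix in advance. With Bradi1g16000 and Bradi2g37340, Bradi4g39167 and Bradi2g20150 made up the 4 members lower than V0 by 1.5-fold in V30N.

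Members lay next to each other along the chromosomes in part. Locus numbers were taken to follow gene order, and genes were called neighbours when no other gene with H3K27me3 values lay between them. By this measure 26 members had a neighbouring member, in 11 pairs and 1 run of 4, and the 100 genes occupied 86 separate places. All 14 neighbouring steps were within 20 locus numbers. Neighbours can share 1 marked region and are not independent. Bradi2g58140 and Bradi2g58146 had the same deposited signal in V0 (64.3) and in V30 (37.2). An equal value alone does not show a shared region: 49 members had a V30 value that another gene had too. Bradi3g51777, on chromosome 3, also had 37.2 in V30. By chromosome, 29 members were on chromosome 1, 30 on chromosome 2, 16 on chromosome 3, 18 on chromosome 4 and 7 on chromosome 5. The shares of all genes were 29.1%, 22%, 21.7%, 18.1% and 9.0%.

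In the 11 pairs, the differences from V0 of both genes lay within 0.15 of each other for V30 and within 0.22 for V30N, a range that the common limit narrows. Bradi1g03250 had 72.2, 24.2 and 46.5 in V0, V30 and V30N, and its neighbour Bradi1g03260 had 72.6, 25.5 and 50.02. Bradi4g02117 and Bradi4g02130 had 23.5 and 25.4 in V30 and 43.8 and 44.5 in V30N. In V30 both of these pairs lay close to the smallest value of that library, 23.3, where likeness says little. Bradi4g26260 had 274, 174 and 198, and its neighbour Bradi4g26270 had 251, 158 and 177. Other pairs differed in level: Bradi1g75580, given above, lay below its neighbour Bradi1g75590 (115, 66.6 and 71.7) in every library. The least alike pair in V30N was Bradi1g16000, given above, and Bradi1g16010 (196, 137 and 136), with V30N minus V0 of -0.65 and -0.44.

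The run of 4 was Bradi5g27330 to Bradi5g27360. Its first 3 genes are published IRI genes, which encode ice recrystallization inhibition proteins that limit the growth of ice crystals in cold-hardy grasses. Bradi5g27360 is not named here. From V0 to V30 to V30N the signal at Bradi5g27330 went from 239 to 108 to 166. Bradi5g27340 had 299, 97.0 and 198, and Bradi5g27360 had 268, 89.5 and 178. The share of the V30 difference still present in V30N was 38.2% at Bradi5g27340, 38.6% at Bradi5g27360 and 24.6% at Bradi5g27350, below the members' median. The measured genes on both sides were not members. Bradi5g27320, the IRI gene before it, had 284, 308 and 233, and Bradi5g27390, the next gene measured, had 28.6, 27.8 and 28.8. Bradi5g27310, the other measured IRI gene, was low in V30N (163 against 254 in V0) but not in V30 (251).

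**Figure D3:**
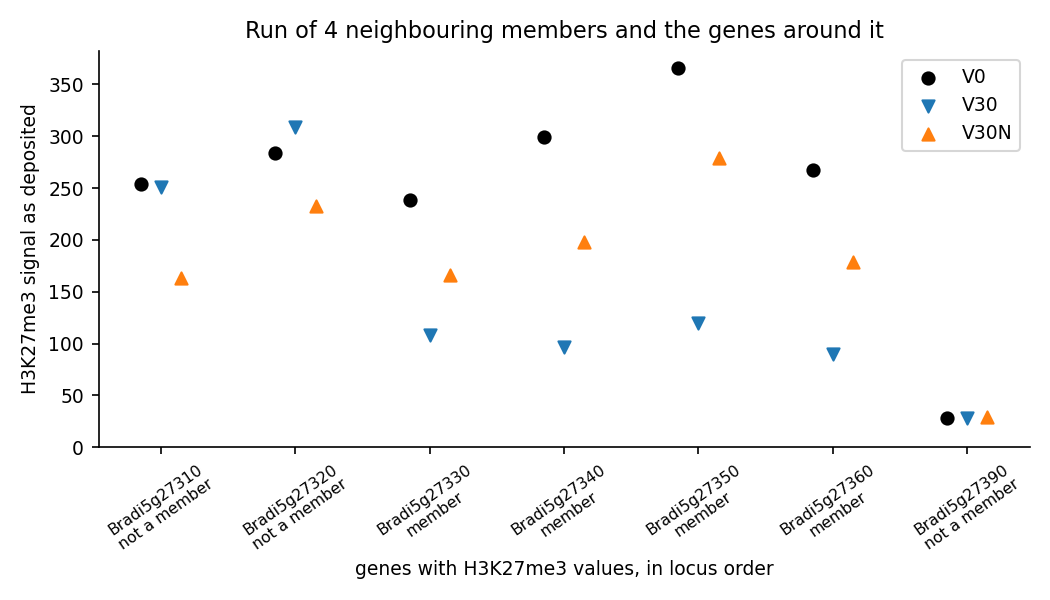
H3K27me3 signal as deposited in each condition at the genes with values around Bradi5g27330 to Bradi5g27360, in locus order and not to distance, with 1 library per condition. At the 4 members V30 is the lowest point (89.5 to 120) and V30N lies between V30 and V0, whereas Bradi5g27310 and Bradi5g27320 are lowest in V30N.

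Other cold and flowering loci were not among the members. With 100 members among 6554 genes, a short list would hold few or none in any case, so nothing is read from these counts. CBF proteins are transcription activators of the early cold response, and 0 of the 4 CBF genes measured were members. At Bradi4g35580, Bradi4g35590 and Bradi4g35600 the difference V30 minus V0 was -0.51, -0.69 and -0.57, within the members' range, but V30N minus V0 was 0.06, 0.23 and 0.11. The fourth, Bradi4g35640, had low signal throughout (28.0, 23.5 and 34.8). Of the 8 flowering genes measured, VRN1 and FT2 were lower in both conditions but were left out by the rule, and 0 of the other 6 were members. ELF3, a clock-associated gene, was below V0 in both, by less than the limit (-0.06 in V30 and -0.25 in V30N). The MADS-box genes SOC1 and FUL2 had 0.59 and 0.37 in V30 and -0.15 and -0.11 in V30N. VRN2L, a relative of the flowering repressor VRN2, had -0.17 and 0.01. FT1, a florigen gene, had 0.18 and 0.11, and CO1, a photoperiod gene, 0.12 and 0.33.

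The median gene beside the members was below V0 in both conditions, by less than the members. The nearest measured non-members within 5 gene places numbered 123, VRN1 among them, with a median of -0.07 for V30 minus V0 and -0.06 for V30N minus V0. Of these, 61% were below 0 in V30 and 63.4% in V30N, compared with 45.7% and 47.4% of all genes. At 1 gene place from a member (60 genes) the medians were -0.14 and -0.08, and at 2 places (54 genes) -0.02 and -0.03. Over 10 places away they were 0.03 and 0.01. Neighbours come from the same libraries, so this is a description. The gene with the lowest V30 value relative to V0 of all, Bradi4g06740, was such a neighbour: next to the member Bradi4g06730, it had 204, 44.4 and 165 and missed the limit in V30N.

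One member adjoins VRN1. Bradi1g08332 had a signal of 57.0 in V0, 36.0 in V30 and 31.6 in V30N, far below that of VRN1 (726, 474 and 460). Its differences were -0.38 and -0.50. On its other side, the strongly marked Bradi1g08326 had 1035 in V0, 1441 in V30 and 1024 in V30N, with differences of 0.50 and 0.00. No member lay directly beside FT2.

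**Figure D4:**
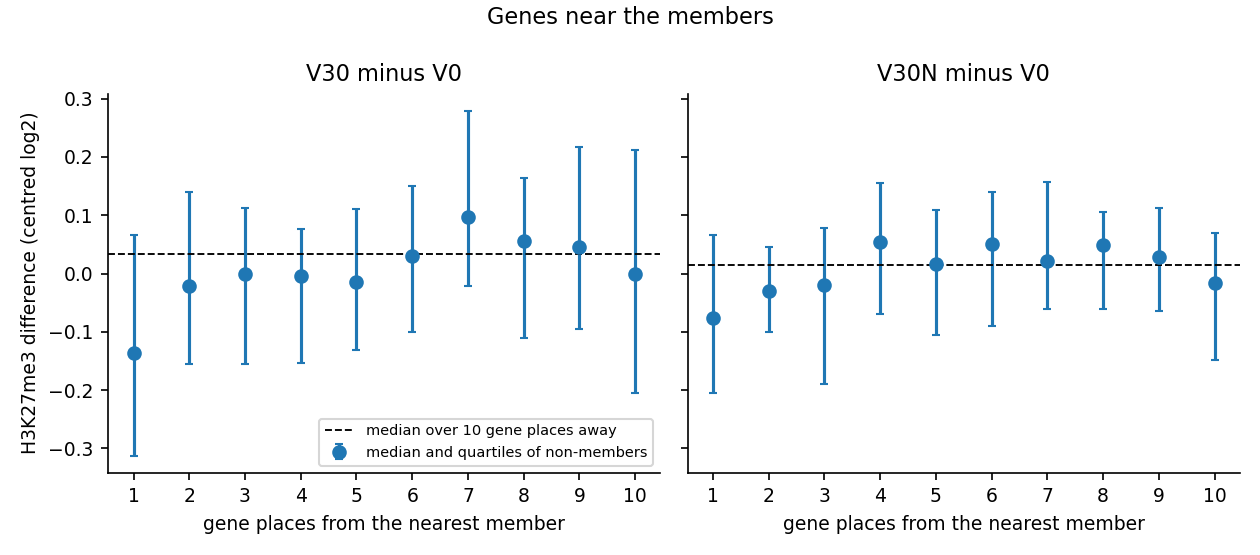
H3K27me3 difference (centred log2) of non-members by their distance from the nearest member in gene places of 10 locus numbers, for V30 minus V0 and V30N minus V0. Points are medians and bars the quartiles over genes, and the dashed line is the median over 10 places away. The medians at 1 place, -0.14 and -0.08, are the lowest in each panel.

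H3K4me3, which the choice of genes did not use, was measured in 4 libraries: 2 of V0 and 1 each of V30 and V30N. Nothing says that the V0 pair stems from different plantings, and p-values then reflect the spread between these 2 libraries alone, which may be technical. Of the 100 members, 47 had H3K4me3 values, compared with 28.6% of all H3K27me3 genes (1872 of 6554). Genes with low H3K27me3 had H3K4me3 values more often in general, and the members lie toward that end. The level classes include V30 and V30N, which the rule held low, so they match level only in part. In the lowest of the 4 level classes the share was 50% of 46 members against 42.6% of all genes. It was 50% of 28 against 34.4% in the second class, 34.8% of 23 against 22.2% in the third, and 66.7% of 3 against 15.1% in the highest.

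Members with and without H3K4me3 had similar H3K27me3 medians. The median V0 signal was 77.6 with H3K4me3 and 84.7 without. The median differences were -0.50 and -0.46 in V30 and -0.42 in both classes in V30N. The rule holds both differences of every member at or below the limit, so nothing is read from their likeness. In 8 of the 12 groups of neighbouring members, H3K4me3 was measured at some genes and not at others. The run of 4 was 1 of them: Bradi5g27360 had H3K4me3 of 104 and 108 in the V0 libraries, 113 in V30 and 105 in V30N, and the IRI genes had no value. After centring, its H3K4me3 difference was 0.20 (SE 0.26) for V30 minus V0, -0.12 (SE 0.26) for V30N minus V0 and -0.32 (SE 0.30) for V30N minus V30, and none passed limma's adjusted test.

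The members' H3K4me3 medians lay close to those of other genes with both marks. The median difference of the 47 was 0.02 for V30 minus V0 (24 above 0), against 0.04 over genes with both marks, and -0.02 for V30N minus V0 (20 above 0), against -0.03. For V30N minus V30 it was -0.11, against -0.05. Centring each library added 0.12, -0.11 and -0.23 to these differences, and as deposited the members' medians turned in sign, to -0.10, 0.09 and 0.12. With limma, 0 of the 47 members passed at an adjusted p under 0.05 in any comparison, as did 0 of 11752 genes (0%). The smallest adjusted p among members was 0.220 for V30 minus V0. At an unadjusted p under 0.05 there were 4 members (7.32% of all genes) for V30 minus V0, 1 (1.03%) for V30N minus V0 and 3 (7%) for V30N minus V30. The median SE of a member's difference from V0 was 0.26, and a p above the threshold does not show that a gene was unchanged.

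Many genes of each H3K4me3 library share exactly 1 value (22.3 and 23.2 in the V0 libraries, 22.9 in V30 and 25.4 in V30N), called tied values here. At 9 of the 47 members such a value entered, compared with 22.6% of genes with both marks. What such a value stands for is not given, so a difference to or from it may not compare measured levels. Over all 47 members, 6 were higher by 1.5-fold in V30 than in V0 (4.21% of all genes) and 1 was lower (5.45%). For V30N minus V0, 0 were higher (0.945%) and 1 was lower (1.36%), and for V30N minus V30, 1 was higher (5.67%) and 5 were lower (5.89%).

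Among the 38 members free of tied values, 4 were higher by 1.5-fold in V30 than in V0, compared with 2.06% of all genes without tied values, and 0 were lower (0.815%). These 4 genes are 10.5% of the 38. For V30N minus V0, 0 of the 38 were higher (0.0429%) and 0 lower (0.45%). From V30 to V30N, 0 were higher (1.1%) and 4 lower (5.27%). When genes with tied values were left out before fitting with limma, 1 of the 38 passed at an adjusted p under 0.05 for V30 minus V0 (0.322% of genes tested), 0 for V30N minus V0 (0.0107%) and 0 for V30N minus V30 (0.322%).

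Bradi2g43640 was the member that passed in that fit, and in none of the others tried. Its H3K4me3 was 32.4 and 42.7 in the V0 libraries, 76.4 in V30 and 46.2 in V30N, while its H3K27me3 was 57.7, 31.1 and 38.1 in V0, V30 and V30N. Only V30 lay outside the range of the V0 libraries by more than their gap. The log2 difference V30 minus V0 was 0.99 (SE 0.25) with a limma adjusted p of 0.220, and in the fit without tied genes it was 0.98 (SE 0.22) with a limma adjusted p of 0.00643. That fit had an infinite variance prior and V30 is 1 library, so the pass rests on the spread shared by all genes. In the other 6 limma fits tried the adjusted p of Bradi2g43640 was between 0.279 and 0.790. In V30N its difference from V0 was 0.14, with H3K27me3 still lower than V0 by 0.36.

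In the other 3 higher by 1.5-fold V30 was also the highest of the 4 libraries, and none of them passed an adjusted test. Bradi5g23166 had H3K4me3 of 50.9 and 62.8 in V0, 84.4 in V30 and 51.8 in V30N. Bradi3g49350, which had one of the largest H3K27me3 losses in V30 (163 to 54.7), had H3K4me3 of 17.0 and 16.8 in V0, 28.4 in V30 and 18.9 in V30N. The V0 libraries were themselves far apart for Bradi2g62510, with 65.3 and 45.7, against 82.5 in V30 and 57.8 in V30N, and its log2 difference of 0.63 was 1.01 without V0 library 1 and 0.26 without library 2. These genes were picked for a high V30 value, so their V30N values lying nearer V0 is not read as a result. Bradi2g44080, the fifth in order, had 32.1 and 47.1 in V0, 56.8 in V30 and 53.6 in V30N.

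Among members free of tied values, H3K4me3 differences below 0 in V30 reached -0.42. The lowest, Bradi3g50570, had 41.1 and 48.4 in V0, 27.8 in V30 and 44.5 in V30N, with an SE of 0.27. Bradi1g75580 had 55.8 and 70.6 in V0, 43.1 in V30 and 68.6 in V30N. The next were Bradi1g30110, Bradi5g23190 and Bradi2g58440, at -0.26, -0.20 and -0.17. None of these 5 passed limma's adjusted test.

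**Figure D5:**
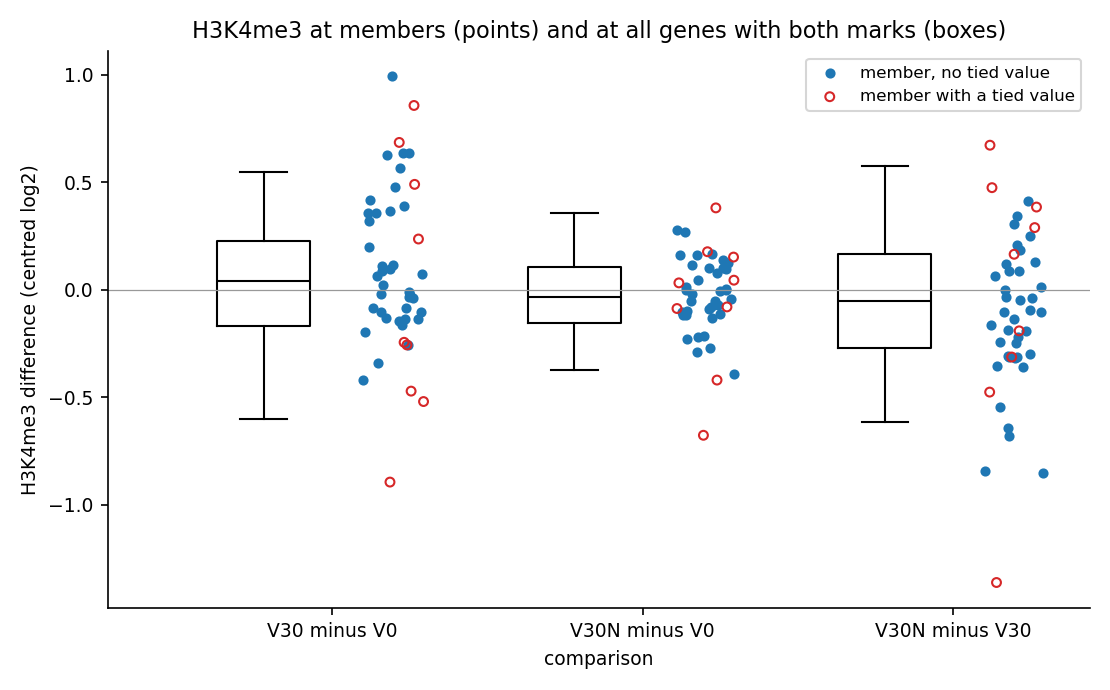
H3K4me3 difference (centred log2) in 3 comparisons, with boxes for the 1872 genes with both marks (quartiles, whiskers at the 5th and 95th percentiles) and points for the 47 members, open where a tied value enters. The members' medians of 0.02, -0.02 and -0.11 lie within the boxes, and the highest filled point for V30 minus V0 is Bradi2g43640 at 0.99.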

How the data were processed

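Chromatin immunoprecipitation with sequencing was done for 2 histone marks in 3 conditions, in 7 libraries. The deposited values are a chromatin signal per gene and library, which the file headers do not define further. The authors aligned reads with Bowtie2 2.1.0, per the submitters' processing notes. Genome build, annotation, input correction, normalization and depth are not given in the sources used here, and no counting interval was made. Values were analysed as log2(signal + pseudocount), with a pseudocount of 27.3 for H3K27me3 and 9.41 for H3K4me3 (the 1st percentile of each mark's values), and each library was centred on its median. H3K4me3 was tested with limma 3.58.1 in R 4.3.3 (variance trend, 1 coefficient per condition, all 4 libraries, Benjamini-Hochberg over 11752 genes). Its spread comes from the V0 pair, and V30 and V30N were assumed to vary alike. The limma script was checked on simulated data first. Other steps used Python 3.11.15, numpy 2.4.6 and pandas 2.3.3.

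The members and gene lists were chosen with earlier results of these data known. Named genes were the 10 lowest scores, the 5 highest V0 signals, listed loci, runs of 3 or more, the 5 largest H3K4me3 differences each way without tied values, genes at the score limit and the 3 extremes of V30N minus V30. Other members of neighbouring pairs, members with a tied value, Bradi2g54500, Bradi1g08332 and Bradi4g06740 were named after their values were seen. Gene classes and promoter motifs, planned as well, need gene descriptions and sequences and were not analysed here. Alternatives covered pseudocount, scaling, level filter, trend removal, list size, tied genes, the variance trend and each V0 library.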

Additional observations from a re-analysis of the deposited data

How the results depend on the processing

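The 100 genes chosen under another setting shared 82 with the members at a pseudocount of 1, 93 at a pseudocount at the 10th percentile, 95 as deposited, 85 with quantile normalization, 86 with the trend with level removed, and 54 without the 25% of genes with the lowest level, where only 54 members remained to be chosen. The number of members lower by 1.5-fold in both conditions, 0 as reported, was 35 at a pseudocount of 1 and 1 as deposited. At the lowest fold limit tried in place of 1.5-fold, all 100 members were lower in both conditions. The choice of genes fixes that count, because the score of every member already lay beyond that fold limit. Nothing is therefore read from it. The share with H3K4me3 was 34.8% in the third and 66.7% in the highest of the 4 level classes. Without tied genes, 1 of 38 members passed limma for V30 minus V0, in place of 0 of 47, and the cause was not tested. Over all genes, 30, 1 and 30 then passed for V30 minus V0, V30N minus V0 and V30N minus V30, and 63, 3 and 34 as deposited with 0 members among them, in place of 0. In both fits limma's variance prior had infinite weight. Leaving out V0 library 1 or 2, which gives values and no test, gave members' median H3K4me3 differences of 0.0091 and 0.028 for V30 minus V0 and -0.039 and -0.040 for V30N minus V0. No paired analysis was possible because each group other than H3K4me3 V0 has 1 library. Promoter windows of other length and gene classes were not run. With 1 library per condition and unknown depth, no H3K27me3 difference can be set against replicate error.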

Other observations

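The 9 members with a tied H3K4me3 value were of 3 kinds. At Bradi3g10730, Bradi3g51777 and Bradi4g32130 the value of V0 library 1 was the tied 22.3, while V0 library 2 had 73.3, 68.9 and 40.1. At 5 members V30 was at the tied 22.9: Bradi1g03880 had 54.1 and 57.4 in the V0 libraries and 43.2 in V30N, Bradi4g26260 had 39.2, 42.5 and 50.9, and Bradi4g44310, Bradi4g02117 and Bradi2g00900 lay between 26.2 and 40.01 in the other libraries. At Bradi1g75590 V30N was at the tied 25.4, with 37.7 and 47.0 in V0 and 67.0 in V30. Its H3K27me3 neighbour Bradi1g75580 had no tied value and differed in the opposite direction in V30, at -0.34 against 0.69.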
